A study of Mus musculus with 8 samples.

Results

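The core circadian clock was described through 10 genes, taken by symbol from a table of 52459 gene symbols that covers 8 libraries of lung tumour nodules. They are the positive arm (Arntl, Clock and Npas2), the PER/CRY arm (Per1, Per2, Per3, Cry1 and Cry2) and the REV-ERB arm (Nr1d1 and Nr1d2), and all 10 were among the 14085 genes with enough counts to test. The nodules came from mice of a genetically engineered lung tumour model that includes Trp53, on a mixed background, in groups of 2 libraries: JQ1 with anti-PD-1 antibody (here the combination), JQ1, anti-PD-1 antibody, and vehicle. JQ1 blocks the bromodomains of BET proteins, readers of acetylated histones, and the antibody blocks PD-1, a brake on T cells. All 4 groups carry the tumour alleles, so none of them is normal lung. The labels do not give the driver of the tumour alleles, the age of the animals, the doses and schedules, or the hour at which nodules were taken. They also do not say whether the libraries of a group are separate animals, so the spread between them may be partly technical.

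In each cell the clock is a feedback loop of transcription. ARNTL (also called BMAL1) pairs with CLOCK or its paralog NPAS2, binds E-boxes in DNA and turns on the Per, Cry and Nr1d genes. The PER and CRY proteins then inhibit that pair, while REV-ERB alpha and beta, the products of Nr1d1 and Nr1d2, repress genes with ROR elements, among them Arntl, Npas2, Cry1 and Nfil3 in mouse liver. In mouse lung and liver Arntl and Npas2 peak near the time at which Nr1d1 is lowest, and Per3, Nr1d2 and Per2 peak after Nr1d1. Libraries taken at different hours of an intact clock could therefore differ in opposite directions in these arms.

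Stretches upstream of the transcription start are shown for members in which a clock motif was found, because the D-box, E-box and ROR element are the letters through which the loop acts. Windows were taken from RefSeq on GRCm38.p6, each with 250 bases before and 50 after a start, and 9 of the 10 members, all but Per2, had at least 1. Both strands were searched for the E-box CACGTG, the E′-box CACGTT, the D-box TTANGTAA and the ROR element TAGGTCA, which do not overlap each other in the stretches shown. Capitals mark the motif, and AACGTG is the E′-box read on the other strand.
Per3, chr4:151044786-151044900, minus strand, 2 D-boxes: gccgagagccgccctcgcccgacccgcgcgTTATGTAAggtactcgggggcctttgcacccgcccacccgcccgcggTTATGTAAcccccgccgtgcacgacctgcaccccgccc
Per1, chr11:69098753-69098818, plus strand, E-box: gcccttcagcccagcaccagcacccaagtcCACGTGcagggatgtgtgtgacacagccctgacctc
Cry1, chr10:85185079-85185163, minus strand, E′-box and E-box: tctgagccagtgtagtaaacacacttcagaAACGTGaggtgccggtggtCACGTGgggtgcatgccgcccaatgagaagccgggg
Cry2, chr2:92434200-92434265, minus strand, E′-box: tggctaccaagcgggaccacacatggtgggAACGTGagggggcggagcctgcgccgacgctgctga
Nr1d1, chr11:98775378-98775435, minus strand, E′-box: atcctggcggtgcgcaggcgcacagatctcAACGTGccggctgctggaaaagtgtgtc
The D-box is bound by DBP, TEF and HLF, which activate, and by NFIL3, which represses. Of 32851 windows of this length, 7.15% held the E-box, 4.68% the E′-box, 2.32% the D-box and 2.61% the ROR element. Of the 2 Arntl windows, 1 held a ROR element, which began at base 31 after the start, and Clock, Npas2 and Nr1d2 held none of the 4 motifs. These are matches of letters only, and no binding was measured.

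Depth and RNA composition differed between the groups. The shallowest library, combination replicate 1, held 2719816 counts and the deepest, vehicle replicate 2, 15224108, so 1 count was worth 0.42 and 0.0573 CPM in them (counts scaled by library total and TMM factor). Ribosomal RNA took 49.2% ± 4.62 of counts in the combination, 31.3% ± 5.19 with JQ1, 23.8% ± 0.457 with anti-PD-1 and 22.7% ± 1.32 in vehicle (SD, n = 2 each). Judged by Xist and Y-linked genes, combination replicate 1, JQ1 replicate 1 and anti-PD-1 replicate 2 were female, and both vehicle libraries were male, as were the remaining 3. The labelled lung tumour tissue was checked with 8 alveolar type 2 markers, which summed to between 6207 and 11225 CPM, with none at 0 in any library. Marker sums of other cell types also differed between the groups. Airway markers summed to 582 and 289 CPM in the combination, 462 and 172 with JQ1, 120 and 53.1 with anti-PD-1, and 38.1 and 12.5 in vehicle. Endothelial markers summed to 170 and 203 CPM in the combination, 152 and 122 with JQ1, 126 and 124 with anti-PD-1, and 67.5 and 112 in vehicle. Fibroblast markers summed to 403 and 422 CPM in the combination, 741 and 590 with JQ1, 1600 and 963 with anti-PD-1, and 1245 and 1006 in vehicle. Striated muscle markers summed to 139 and 67.1 CPM in the combination, 250 and 328 with JQ1, 561 and 321 with anti-PD-1, and 530 and 386 in vehicle. So airway sums were above vehicle in every treated library, and fibroblast and muscle sums were lowest in the combination. Those 2 sums rested mainly on Col1a1 and Myh6, with means of 253 and 100 CPM in the combination and 953 and 452 in vehicle. Of the 8 striated muscle markers 4 had enough counts to test. Besides Myh6, the highest vehicle means of that list were 2.68 CPM, for Tnnt2 and Acta1, so the muscle sum was in effect the level of Myh6. Mean Col1a2 and Col3a1 were also lower in the combination than in vehicle. Dcn and Pdgfra of the same fibroblast list were higher, at 9.99 against 1.71 CPM and 41.9 against 10.2. All 6 airway and all 7 endothelial markers were above 0 in every library. The 6 markers of T cells summed to at most 2.09 CPM. The part of ribosomal RNA, depth and cell makeup in the clock results was not tested. In nodules, fewer cells of a type and less RNA per cell cannot be told apart.

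Per length, Nr1d1 was the most abundant member in vehicle, at 28.5 ± 11.2 CPM per kb of exon (SD, n = 2). Nr1d2, Cry2, Per1 and Clock followed at 11.7 ± 1.43, 11.5 ± 0.835, 10.5 ± 1.15 and 6.46 ± 0.809 CPM per kb. Nr1d2, Cry2 and Per1 did not differ beyond their spread. Per2, Arntl, Npas2, Per3 and Cry1 were between 3.35 and 1.37 CPM per kb in vehicle. Probe capture can differ between genes, which limits comparison of levels between them. Exons of Nr1d1 (chromosome 11, 98767932 to 98775333, GRCm38) share 263 bases, 8.55% of their length, with Thra on the other strand. Exons of Cry2 share 4.67% of their length with the transcript D930015M05Rik. The strand setting of the counting was not given in the sources used here, so such shared reads are uncertain.

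**Figure D1:**
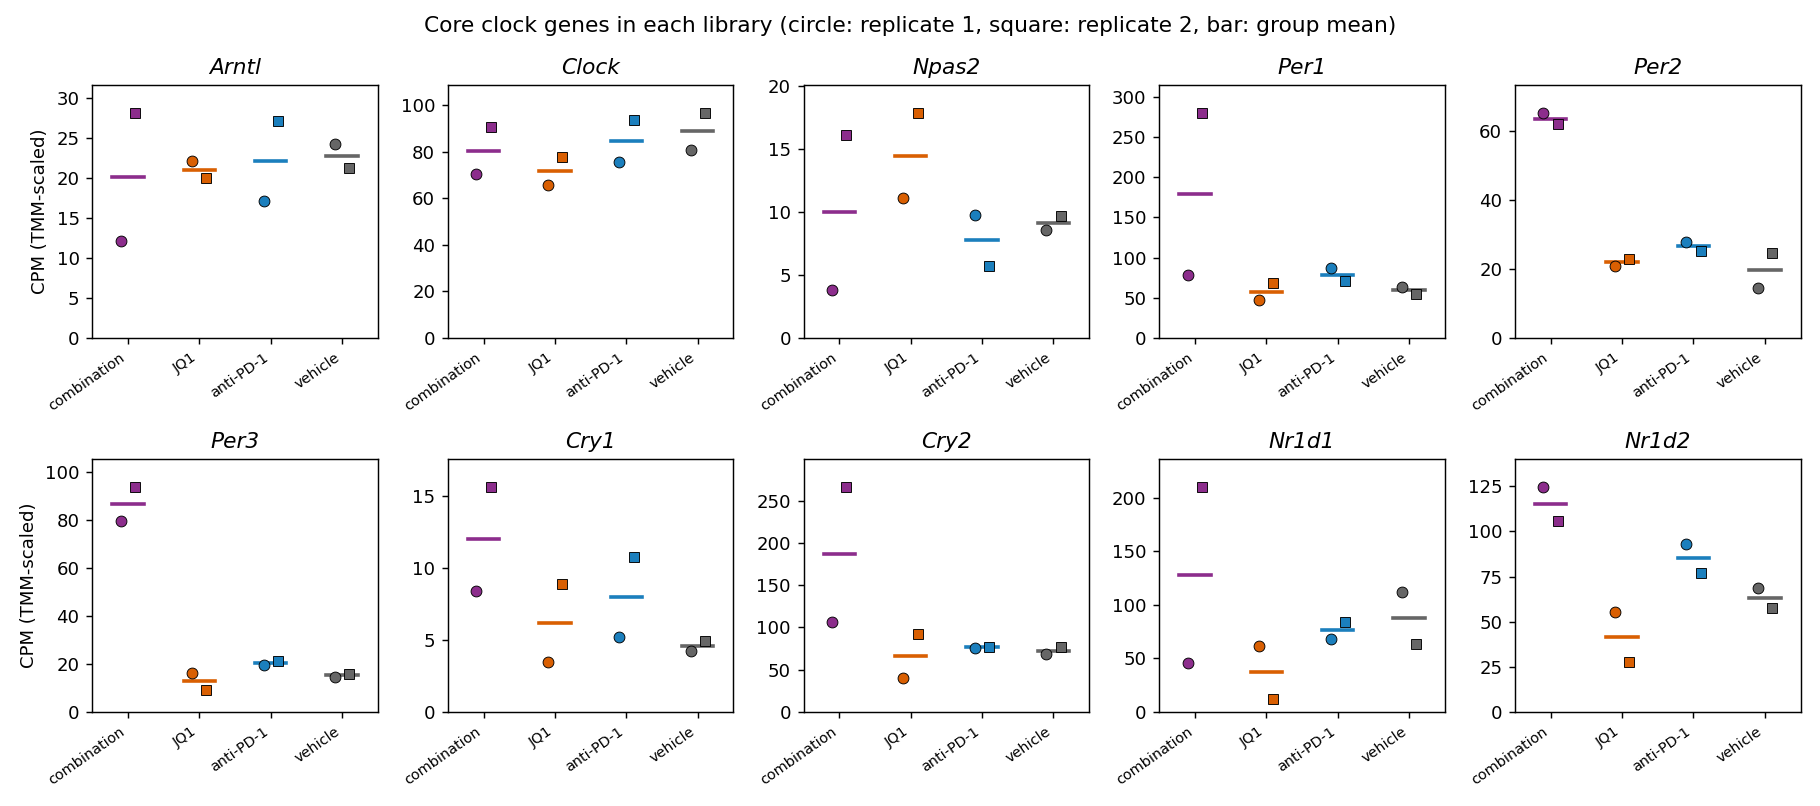
CPM (scaled by library total and TMM factor, axes from 0) of the 10 core clock genes in each library, by group, with circles for replicate 1, squares for replicate 2 and a bar for the group mean of 2 libraries. Per2 and Per3 were high in both combination libraries, at 61.9 to 93.8 CPM, while Per1, Cry2 and Nr1d1 were far higher in combination replicate 2 than in replicate 1.

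The combination against vehicle asks what both treatments together did to nodules. Per2 and Per3, the genes of 2 of the 3 PERIOD repressors, rose, and no member fell. Per3 increased most, to 86.6 ± 10.2 CPM in the combination against 15.2 ± 1.02 CPM in vehicle (SD, n = 2 each), and Per2 was at 63.5 ± 2.31 against 19.6 ± 7.12 CPM. The 3 genes of the positive arm had log2 fold changes between −0.14 and 0.20 and did not pass the test. Of the 10 members 2 were called higher and 0 lower, where 2.44% of the 14085 tested genes were called higher and 2.36% lower, 4.8% in all. The median log2 fold change was 1.12 over the members and 0.07 over all tested genes.

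Within the PER family, Per3 (chromosome 4, 151003652 to 151044665) was at 79.4 and 93.8 CPM in the combination libraries, 16.1 and 9.22 with JQ1, 19.7 and 21.2 with anti-PD-1, and 14.5 and 15.9 in vehicle. Both combination libraries lay above all 6 others, and the other groups spanned 9.22 to 21.2 CPM. Its log2 fold change against vehicle was 2.51 (SE 0.33, 95% interval 1.78 to 3.24, adjusted p = 0.0110 by the quasi-likelihood test of edgeR with Benjamini-Hochberg adjustment). Per2 (chromosome 1, 91415982 to 91459324) was at 65.1 and 61.9 CPM in the combination, 20.9 and 22.9 with JQ1, 27.9 and 25.2 with anti-PD-1, and 14.6 and 24.6 in vehicle. Again the combination stood above all others, the anti-PD-1 libraries came next without overlap, and the JQ1 and vehicle libraries overlapped. The log2 fold change of Per2 was 1.69 (SE 0.31, interval 0.996 to 2.39, adjusted p = 0.0276 in edgeR). Per1 (chromosome 11, 69095217 to 69109960), also an acute target of glucocorticoid and cAMP signals, was at 78.6 and 280 CPM in the combination, 47.1 and 68.0 with JQ1, 86.5 and 70.3 with anti-PD-1, and 63.7 and 54.5 in vehicle. Only combination replicate 2 was outside the range of the other groups, and Per1 missed the threshold at 1.61 (SE 0.50, interval 0.49 to 2.72, adjusted p = 0.0843 in edgeR).

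The calls of Per2 and Per3 ended when any of 3 libraries was left out. Without combination replicate 2 the log2 fold change of Per3 was 2.36 (adjusted p = 0.0567 in edgeR), without vehicle replicate 1 it was 2.43 (adjusted p = 0.101) and without vehicle replicate 2 it was 2.56 (adjusted p = 0.108). Per2 was at 1.71 without combination replicate 2 (adjusted p = 0.0795 in edgeR), at 1.35 without vehicle replicate 1 (adjusted p = 0.207) and at 2.10 without vehicle replicate 2 (adjusted p = 0.118). Fitted on the combination and vehicle libraries alone, Per2 was at 1.69 (adjusted p = 0.0514 in edgeR). Without combination replicate 1, the library of lowest depth, Per1 was at 2.24 and Cry2 at 1.87. Without combination replicate 2 Per1 was at 0.39 (adjusted p = 0.520 in edgeR), Cry2 at 0.53 (adjusted p = 0.509) and Cry1 at 0.85 (adjusted p = 0.503). DESeq2 with all libraries called Per1, Per2, Per3 and Cry2, beside 1632 tested genes. With a sex term edgeR called 3 members, beside 339 tested genes, among them Per1 at 1.85 (adjusted p = 0.0470). When ribosomal RNA share entered the fit, Per2 was at 2.47 (SE 1.19) and Per3 at 0.61 (SE 1.07), and neither passed. Removing the ribosomal RNA genes from the counts ended no call.

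Cryptochromes, the partners of PER proteins, were higher without passing the test. Cry2 (chromosome 2, 92403646 to 92434043) was at 106 and 266 CPM in the combination, 40.4 and 92.3 with JQ1, 75.9 and 77.0 with anti-PD-1, and 68.8 and 76.2 in vehicle. Both combination libraries lay above the other 6, by little in replicate 1, and the log2 fold change was 1.37 (SE 0.47, interval 0.32 to 2.42, adjusted p = 0.105 in edgeR). Cry1 (chromosome 10, 85131700 to 85185064), a low member, was at 8.40 and 15.6 CPM in the combination, 3.46 and 8.87 with JQ1, 5.16 and 10.8 with anti-PD-1, and 4.19 and 4.93 in vehicle. The treated groups overlapped one another, and its log2 fold change was 1.43 (SE 0.55, interval 0.21 to 2.65, adjusted p = 0.134 in edgeR).

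The REV-ERB genes differed from each other. Nr1d2 (chromosome 14, 18204054 to 18239127) was at 125 and 106 CPM in the combination, 55.5 and 27.7 with JQ1, 93.2 and 77.2 with anti-PD-1, and 68.8 and 57.8 in vehicle. Its groups did not overlap, with the combination highest, then anti-PD-1, vehicle and JQ1, and its log2 fold change in the combination against vehicle was 0.86 (SE 0.33, interval 0.12 to 1.60, adjusted p = 0.134 in edgeR). Nr1d1 was at 45.8 and 210 CPM in the combination, 61.9 and 11.8 with JQ1, 68.0 and 84.1 with anti-PD-1, and 112 and 63.2 in vehicle. Combination replicate 1 was below both vehicle libraries and replicate 2 above both, and the log2 fold change of 0.56 had an SE of 0.86 (interval −1.46 to 2.58). It was −0.96 without combination replicate 2. When ribosomal RNA share entered the fit, Nr1d1 was called lower at −8.64 (SE 0.98, adjusted p = 0.0470 in edgeR), 1 of the 2 genes called. In that fit Nr1d2 (−0.71), Per1 (−0.63) and Npas2 (−0.96) turned negative without passing. The share follows the groups, at 49.2% in the combination and 22.7% in vehicle, so such a fit hardly separates it from treatment. The Nr1d1 levels above show no fall of that size.

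In the positive arm the libraries overlapped. Arntl (chromosome 7, 113207465 to 113314126) was at 12.2 and 28.1 CPM in the combination, 22.1 and 20.0 with JQ1, 17.2 and 27.1 with anti-PD-1, and 24.3 and 21.3 in vehicle. The combination libraries held both the lowest and the highest Arntl of the 8, with a log2 fold change of −0.14 (SE 0.40, interval −1.03 to 0.75). Clock (chromosome 5, 76209868 to 76304792), the least variable member, was at 70.2 and 90.5 CPM in the combination, 65.9 and 77.6 with JQ1, 75.5 and 93.5 with anti-PD-1, and 80.8 and 96.5 in vehicle, at −0.14 (SE 0.27, interval −0.73 to 0.45). Npas2 (chromosome 1, 39193731 to 39363236) was at 3.78 and 16.1 CPM in the combination, 11.1 and 17.8 with JQ1, 9.76 and 5.72 with anti-PD-1, and 8.54 and 9.68 in vehicle, at 0.20 (SE 0.56, interval −1.05 to 1.45). Arntl was at −0.93 and Npas2 at −1.29 when combination replicate 2 was left out, and at 0.30 and 0.82 when replicate 1 was, none of them passing. Clock was at 0.023 without combination replicate 1.

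Both combination libraries were above all 6 others for 4 of the 10 members (Per2, Per3, Cry2 and Nr1d2) and below all 6 for none. Of all tested genes, 12.5% stood above all 6 and 12.8% below.

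**Figure D2:**
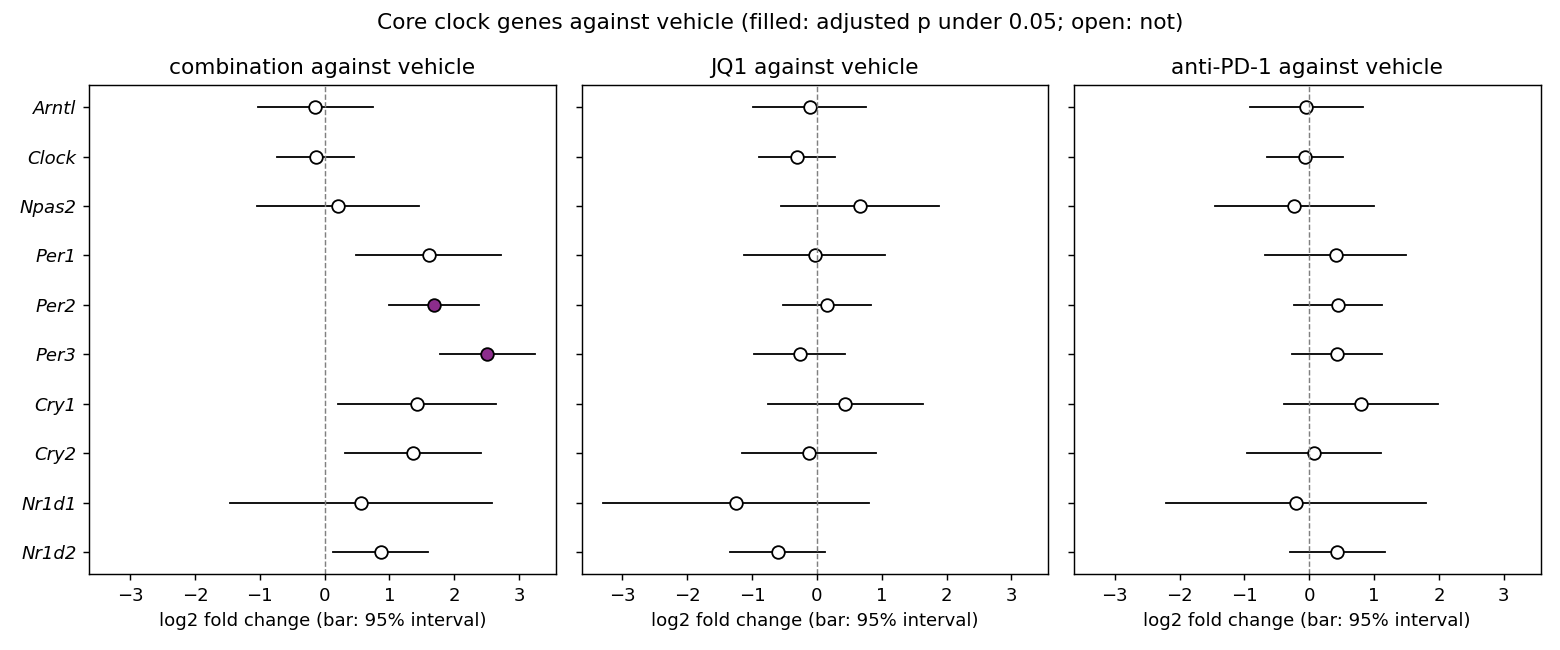
Log2 fold changes of the 10 core clock genes in the combination, JQ1 and anti-PD-1 groups against vehicle, with 95% intervals from edgeR's fit of all 8 libraries and filled points for adjusted p under 0.05. Only Per2 (1.69) and Per3 (2.51) in the combination are filled, and the 3 comparisons share the vehicle libraries.

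JQ1 against vehicle asks what BET inhibition alone did. The REV-ERB genes stood lowest relative to vehicle, but no member was called. Nr1d2 had a log2 fold change of −0.61 (SE 0.33, interval −1.34 to 0.13, adjusted p = 0.532 in edgeR) and Nr1d1 one of −1.25 (SE 0.87, interval −3.30 to 0.80, adjusted p = 0.612). Both rested largely on JQ1 replicate 2: without that library Nr1d1 was at −0.51 and Nr1d2 at −0.20, and without JQ1 replicate 1 they were at −2.90 and −1.20. Npas2 was at 0.67 (SE 0.55, interval −0.55 to 1.88, adjusted p = 0.651 in edgeR) and at 0.27 without JQ1 replicate 2, and the other 7 members were between −0.31 and 0.44. The groups did not overlap for Nr1d1, Nr1d2 and Clock, lower with JQ1, and Npas2, higher with JQ1. Of all tested genes 23% were likewise lower and 26.3% higher in both JQ1 libraries, so 3 and 1 of 10 members are near that background. By edgeR 0 of 10 members were called, as were 0% of all tested genes, and 0 members had an unadjusted p under 0.05. DESeq2 and limma voom also called 0. With the ribosomal share in the fit, Nr1d1 was called at −4.52 (adjusted p = 0.0144 in edgeR) and was 1 of the 2 genes called. That share follows the groups, so such a fit hardly separates it from treatment. The Nr1d1 levels, 61.9 and 11.8 CPM with JQ1 against 112 and 63.2 in vehicle, show no fall of that size.

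Anti-PD-1 against vehicle asks what the antibody alone did. The 3 members with the smallest unadjusted p were in the PER/CRY arm, with Cry1 at 0.80 (SE 0.54, interval −0.39 to 1.98), Per2 at 0.44 (SE 0.31, interval −0.24 to 1.11) and Per3 at 0.42 (SE 0.31, interval −0.27 to 1.12), each with an adjusted p of 1 in edgeR. The other 7 members were between −0.23 and 0.43. Again 0 of 10 members were called by edgeR, DESeq2 and limma voom, 0% of all tested genes were called by edgeR, and 0 members had an unadjusted p under 0.05.

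Against each single treatment, Per3 was again called higher in the combination. Against anti-PD-1 alone, which shows JQ1 added to the antibody, Per3 rose by 2.09 (SE 0.32, adjusted p = 0.0215 in edgeR), where 2.15% of tested genes were called higher and 2.08% lower, 4.23% in all. Per2 was at 1.26 (SE 0.31, adjusted p = 0.0503 in edgeR) and Cry2 at 1.29 (SE 0.47, adjusted p = 0.121). The Per3 call ended without combination replicate 2 (1.93), anti-PD-1 replicate 1 (2.01) or anti-PD-1 replicate 2 (2.12), and when ribosomal RNA share entered the fit (0.27). Against JQ1 alone, which shows the antibody added to JQ1, Per3 rose by 2.78 (SE 0.33, adjusted p = 0.0433 in edgeR) and was 1 of the 2 genes called higher, 0.0142% of those tested, beside 0.0071% called lower and 0.0213% in all. Per2 was at 1.53 (SE 0.31, adjusted p = 0.122 in edgeR) and Nr1d2 at 1.47 (SE 0.34, adjusted p = 0.127). That Per3 call ended without combination replicate 2 (2.62), JQ1 replicate 2 (2.42), anti-PD-1 replicate 1 or replicate 2 (both 2.77), or vehicle replicate 1 or 2 (both 2.77). It also ended with a sex term (2.81), with the ribosomal share (1.54) and with only the combination and JQ1 libraries in the fit (2.77). These comparisons share the combination libraries.

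Averaged over both backgrounds, with 4 libraries on each side, Per3 rose with JQ1 by 0.91 (SE 0.22, adjusted p = 0.0397 in edgeR), where 4.22% of tested genes were called higher and 4.05% lower, 8.27% in all. The libraries of the 2 sides overlapped for Per3, since the JQ1 libraries held 16.1 and 9.22 CPM. Without the antibody, JQ1 replicate 1 lay above both vehicle libraries (14.5 and 15.9 CPM) and replicate 2 below both. With it, both combination libraries (79.4 and 93.8 CPM) lay above both anti-PD-1 libraries (19.7 and 21.2 CPM). The averaged rise therefore does not describe JQ1 alone. Per2 was at 0.71 (SE 0.22, adjusted p = 0.0666 in edgeR) and Cry2 at 0.58 (SE 0.33, adjusted p = 0.243). The call ended without combination replicate 2 (0.83), JQ1 replicate 1 (0.66), anti-PD-1 replicate 1 (0.87) or replicate 2 (0.92), or vehicle replicate 1 (0.86) or replicate 2 (0.93), and with a sex term (0.85). With the ribosomal share Per3 was at −0.33. Averaged likewise, the antibody gave 0 called members in edgeR, with 6 of 10 at an unadjusted p under 0.05, beside 1418 of the 14085 tested genes. DESeq2 called 3 members, beside 194 tested genes, and limma voom 0, beside 1. Per3 was at 1.60 (SE 0.23, adjusted p = 0.0767 in edgeR), Per2 at 0.98 (SE 0.22, adjusted p = 0.222) and Nr1d2 at 0.95 (SE 0.24, adjusted p = 0.255), and for Per1, Per2, Per3 and Nr1d2 all 4 libraries with antibody lay above all 4 without, as they did for 1.36% of tested genes. By edgeR 0% of tested genes were called higher in that contrast and 0.0142% lower. Without JQ1 replicate 1 Per3 was called at 1.83, and without combination replicate 1 at 1.66.

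The interaction asks whether the combination departed from the sum of the single effects. Per3 departed by 2.35 (SE 0.45, interval 1.35 to 3.35), Per2 by 1.10 (SE 0.44) and Nr1d2 by 1.04 (SE 0.47), and none passed in edgeR (adjusted p = 0.745, 0.746 and 0.776), where 0% of tested genes were called. Of the members, 3 had an unadjusted p under 0.05 in edgeR, beside 880 of the 14085 tested genes. DESeq2 called 1 member, Per3 (adjusted p = 0.00795), beside 16 tested genes. Limma voom called 0 members, beside 0 tested genes.

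Each library's clock was then read arm by arm, because the hour of sampling could move the arms of an intact clock against each other. The part of the hour in these values was not tested. Relative to the vehicle mean of log2(CPM + 0.5), the PER genes averaged 1.51 and 2.17 in combination replicates 1 and 2, and the positive arm −0.79 and 0.38. The REV-ERB genes averaged 0.05 and 1.03 in those libraries, and the CRY genes 0.68 and 1.77. So the PER mean was high in both, while the positive arm was below vehicle in one and above it in the other. In replicate 1 the PER mean rested on Per2 and Per3, since Per1 was at 0.41, below anti-PD-1 replicate 1 at 0.55. The REV-ERB mean there joined Nr1d1 at −0.87 and Nr1d2 at 0.98. In JQ1 replicates 1 and 2 the REV-ERB genes averaged −0.31 and −1.97, the PER genes −0.03 and −0.07 and the positive arm −0.06 and 0.19. In the anti-PD-1 libraries every arm was between −0.17 and 0.62.

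**Figure D3:**
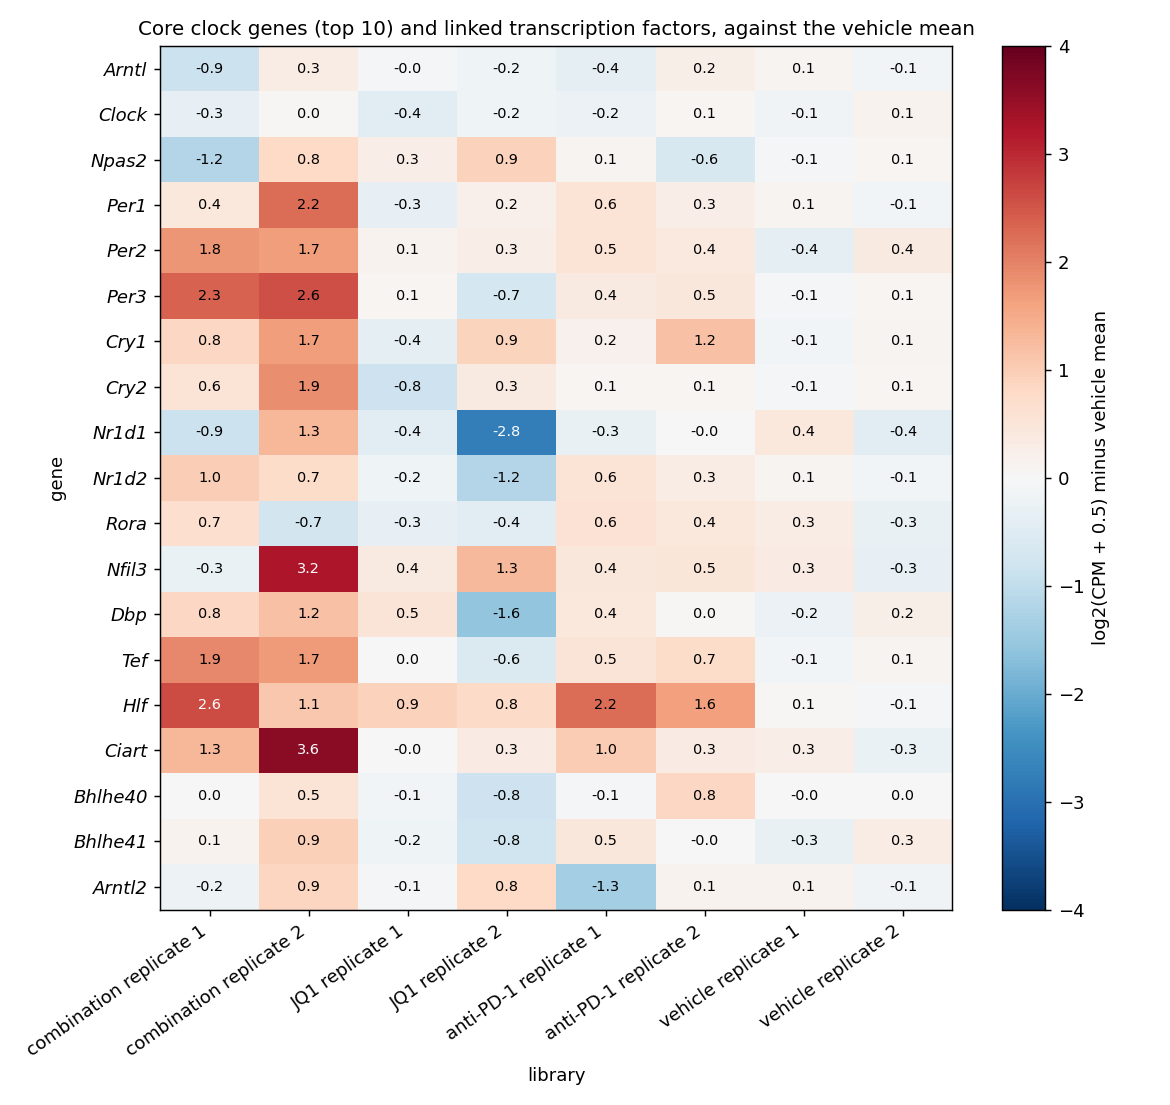
Level of the 10 core clock genes and of 9 linked transcription factors in each library, as log2(CPM + 0.5) minus the vehicle mean, with red above and blue below vehicle. Per2, Per3 and Tef are red in both combination libraries, and JQ1 replicate 2 is blue for Nr1d1, Nr1d2, Per3 and Dbp.

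Ratios of counts within a library do not depend on how libraries are scaled. Per3 over Arntl was 6.52 and 3.33 in the combination, 0.730 and 0.461 with JQ1, 1.15 and 0.782 with anti-PD-1, and 0.596 and 0.749 in vehicle. The combination lay apart by this ratio, as it did by Per3 over Clock, at 1.13 and 1.04 against 0.119 to 0.261 in the other 6. It did not by Per3 over Per1, at 1.01 and 0.335, with JQ1 replicate 1 at 0.342. Nor did it by Per3 over Nr1d1, at 1.73 and 0.446, with JQ1 replicate 2 at 0.779. The same Per3 counts enter all of these ratios. Nr1d1 over Arntl, genes that peak about opposite each other in mouse lung and liver, was 3.76 and 7.47 in the combination, 2.80 and 0.591 with JQ1, 3.96 and 3.10 with anti-PD-1, and 4.61 and 2.98 in vehicle. By that ratio the combination overlapped vehicle, and JQ1 replicate 2 stood alone at the low end. Nr1d1 over Npas2 was 12.1 and 13.0 in the combination, 5.58 and 0.663 with JQ1, 6.96 and 14.7 with anti-PD-1, and 13.1 and 6.53 in vehicle, with the same library lowest.

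**Figure D4:**
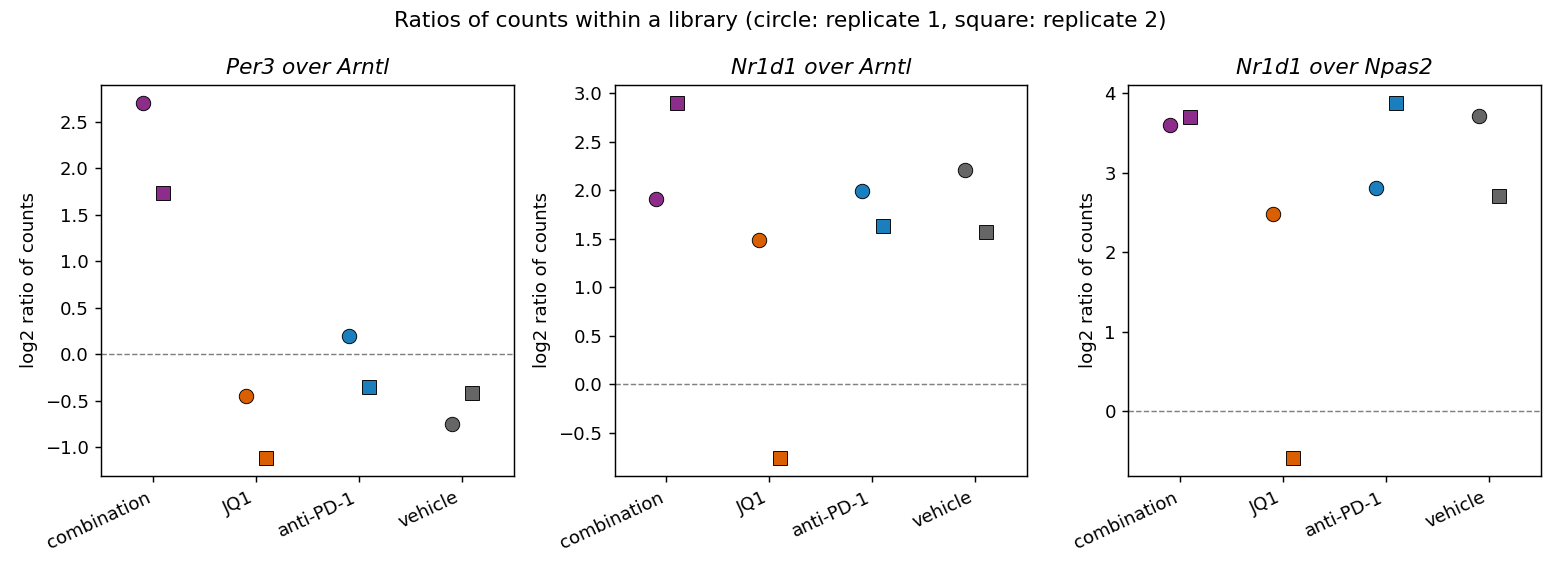
Log2 ratio of counts of 2 clock genes within each library, by group, with circles for replicate 1 and squares for replicate 2. Per3 over Arntl sets both combination libraries above the other 6, whereas Nr1d1 over Arntl and Nr1d1 over Npas2 set JQ1 replicate 2 below the rest.

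Libraries of the same group share their treatment, so differences between them show how far the clock genes varied within a treatment. Between combination replicates 2 and 1, 5 of 10 members differed by more than 1 on the log2 scale: Nr1d1 by 2.19, Npas2 by 1.96, Per1 by 1.82, Cry2 by 1.32 and Arntl by 1.17, all higher in replicate 2. Per2, Per3 and Nr1d2 differed there by −0.07, 0.24 and −0.24. Genes of the positive arm and genes that it activates were thus higher in the same library. Between JQ1 replicates 2 and 1, 3 members differed by more than 1, namely Nr1d1 by −2.34, Cry1 by 1.24 and Cry2 by 1.18, with Nr1d2 at −0.99, Per3 at −0.77 and Npas2 at 0.66. Arntl differed by −0.14 in that pair. No member differed by more than 1 between the anti-PD-1 libraries or between the vehicle libraries. The Nr1d1 difference was exceeded by 2.82% of 11116 genes with a mean of at least 2 CPM in the combination pair, by 1.43% in the JQ1 pair, by 55.2% in the anti-PD-1 pair and by 6.96% in the vehicle pair. The median absolute difference of those genes was 0.51, 0.38, 0.35 and 0.26 in the same order. In the combination pair the differences of Npas2, Per1, Cry2 and Arntl were exceeded by 3.98%, 5.03%, 11.7% and 15.2% of them. So at least 15.2% of those genes differed by more than 1 in that pair. In the JQ1 pair Cry1 and Cry2 were exceeded by 7.11% and 8.17%. The combination pair joined a female library of 2719816 counts and a male one of 9034331.

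**Figure D5:**
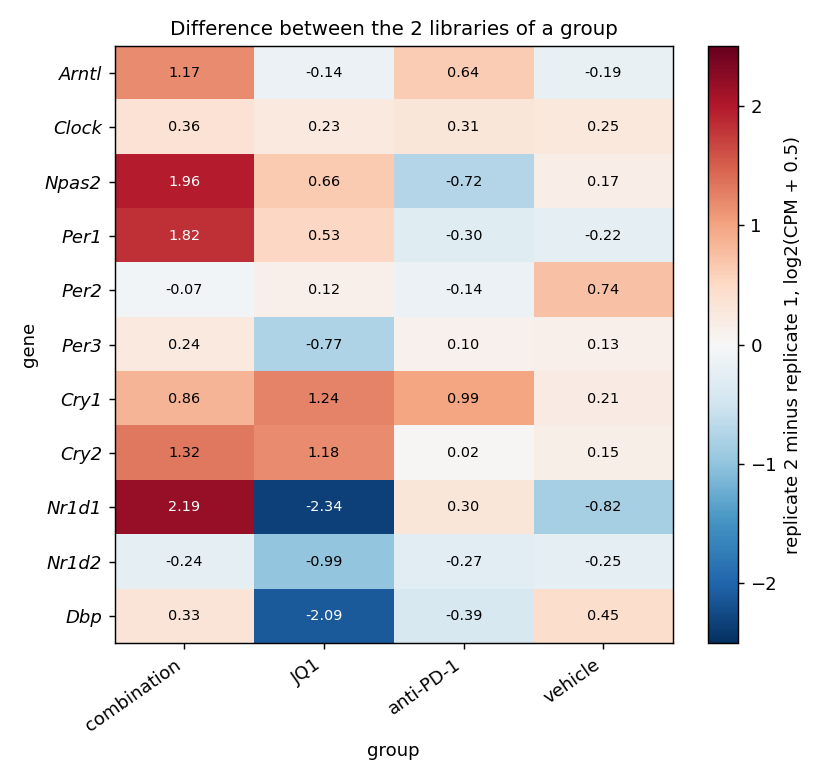
Difference between the 2 libraries of each group, replicate 2 minus replicate 1 in log2(CPM + 0.5), for the 10 core clock genes and Dbp. Nr1d1 differed by 2.19 in the combination pair and by −2.34 in the JQ1 pair, while Per2 and Per3 differed little between the combination libraries.

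Opposition of Arntl and Nr1d1 was not seen among these libraries. In 4 of 4 groups the library with more Nr1d1 also had more Arntl, and in 3 of 4 groups it had less Npas2. The Arntl differences were small in the JQ1 pair (−0.14) and the vehicle pair (−0.19). Of the 11116 genes with a mean of at least 2 CPM, 80% and 61% differed more there, so the direction in those pairs carries little weight. Other pairs of members did move in opposite directions in 4 of 4 groups, among them Arntl and Per2, and Clock and Nr1d2. Clock moved in the same direction as Cry1 and as Cry2 in 4 of 4. These other pairs were picked after their values were seen. Over the 8 libraries Nr1d1 and Arntl had a Pearson r of 0.483 (exact permutation p = 0.215, adjusted p = 0.588 over 3 relations) and a Spearman rho of 0.762 (exact permutation p = 0.0368, adjusted p = 0.110). Without the 2 libraries farthest in Nr1d1, JQ1 replicate 2 and combination replicate 2, r was 0.788. Nr1d1 and Clock had r = 0.366 (rho 0.5) and Nr1d1 and Npas2 r = −0.113 (rho −0.0952), with exact permutation p between 0.216 and 0.840, and r of 0.409 and 0.344 without those libraries. The libraries span 4 treatments, which these values do not separate. Hour of sampling is not in the labels, so hour and treatment cannot be told apart, nor can hour and animal within a group.

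As a description of likeness, the 5 genes with the highest Pearson r with Nr1d1 over the 8 libraries, of 10728 ranked, were Asap3 (0.983), Megf6 (0.982), Aldh1l1 (0.957), Erp44 (0.944) and Lcn2 (0.943), the last a secreted lipocalin. Lcn2 was at 21.0 and 127 CPM in the combination, 60.9 and 8.79 with JQ1, 40.7 and 43.6 with anti-PD-1, and 93.1 and 28.8 in vehicle. For Arntl they were Med9 (0.992), Slc35b1 (0.990), Usp46 (0.968), Tmem117 (0.968) and Rnd2 (0.964). No clock gene of the lists below was among these 10. The points share depth and composition within a library.

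Transcription factors linked to the loop were described from a list of 11 genes, 10 of them tested. In the combination against vehicle 2 rose and none fell, with a median log2 fold change of 1.20. Over all tested genes 2.44% were called higher and 2.36% lower, and the median was 0.07. Tef, a D-box activator, was at 147 and 128 CPM in the combination, 39.1 and 25.8 with JQ1, 55.3 and 63.8 with anti-PD-1, and 35.8 and 41.2 in vehicle. It resembled Per3 in that both combination libraries lay above all others, and it rose by 1.83 (SE 0.29, adjusted p = 0.0177 in edgeR). Ciart, a repressor of the CLOCK and ARNTL pair, was at 2.94 and 16.3 CPM in the combination, 0.838 and 1.22 with JQ1, 2.23 and 1.22 with anti-PD-1, and 1.14 and 0.630 in vehicle. It rose by 3.51 (SE 0.76, adjusted p = 0.0361 in edgeR), mostly through replicate 2. Hlf, a D-box activator, was at 3.37 (SE 0.90, adjusted p = 0.0565 in edgeR). Hlf was low in all libraries, at 3.78 and 0.987 CPM in the combination, from 9 and 6 counts, against 0.229 and 0.172 in vehicle. It was at 0.838 and 0.696 CPM with JQ1 and 2.79 and 1.69 with anti-PD-1. Both anti-PD-1 libraries thus lay above combination replicate 2. The Tef and Ciart calls ended without combination replicate 2 (1.91 and 1.71), vehicle replicate 1 (1.72 and 3.95) or vehicle replicate 2 (1.92 and 3.10), and that of Ciart also without anti-PD-1 replicate 1 or 2 (both 3.49) and with only the libraries compared (3.51, adjusted p = 0.0564 in edgeR). With the ribosomal share in the fit, Tef was at 1.13 and Ciart at −0.52, and neither passed. Against anti-PD-1 alone 1 gene of the list rose, beside 2.15% of all tested genes. None rose against JQ1 alone (0.0142% of tested genes) or with either single treatment against vehicle (0%).

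Nfil3, Npas2 and Cry1, which REV-ERB proteins repress in mouse liver, were singled out after their values were seen. Nfil3 was at 2.10 and 29.1 CPM in the combination, 3.56 and 7.22 with JQ1, 3.77 and 3.94 with anti-PD-1, and 3.43 and 2.0 in vehicle. In the JQ1 pair all 3 were higher in replicate 2, which had the lower Nr1d1, and in the combination pair all 3 were higher in replicate 2, which had the higher Nr1d1. Arntl, another gene they repress there, did not join them in the JQ1 pair. Replicate 2 minus replicate 1, it differed by −0.14 on the log2 scale in that pair and by 1.17 in the combination pair. Dbp, a direct output of the CLOCK and ARNTL pair, was at 6.72 and 8.56 CPM in the combination, 5.34 and 0.870 with JQ1, 4.95 and 3.66 with anti-PD-1, and 2.97 and 4.24 in vehicle, and so was also lowest in JQ1 replicate 2.

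Kinases and ubiquitin ligases that act on clock proteins did not follow the PER genes. Of 7 tested of 8, none was called in the combination against vehicle, and 6 were negative with a median of −0.43. Over all tested genes 2.44% were called higher and 2.36% lower, and the median was 0.07. Csnk1d, the casein kinase that phosphorylates PER proteins, was at 305 and 358 CPM in the combination against 595 and 512 in vehicle, with the log2 fold change at −0.74 (SE 0.25, adjusted p = 0.0947 in edgeR). Fbxw11 and Btrc, which target PER for degradation, were at −0.52 and −0.72, and Csnk1e at −0.43. Among 8 genes rhythmic in many mouse organs, 1 rose, beside 2.44% of all tested genes, and the median was −0.13. That gene was Por, the electron donor of cytochrome P450 enzymes, at 86.6 and 181 CPM in the combination against 38.7 and 44.4 in vehicle (log2 fold change 1.70, SE 0.35, adjusted p = 0.0328 in edgeR). Its call ended without combination replicate 2 (1.03), vehicle replicate 1 (1.58) or vehicle replicate 2 (1.78), with only the libraries compared (1.69) and with the ribosomal share (−0.12). Lonrf3 was at 1.51, Klf10 at 1.12 and Tspan4 at −0.62, none passing. Lonrf3 was at −0.080 without combination replicate 1 and Klf10 at −0.37 without combination replicate 2.

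Glucocorticoid receptor targets are given because that receptor also acts on Per1. All 12 were tested, all 12 were positive in the combination against vehicle with a median of 1.98, and 2 rose. Of the 14085 tested genes 7383 were positive with a median of 0.07, and 2.44% were called higher and 2.36% lower. Against anti-PD-1 alone 1 of them rose, beside 2.15% of all tested genes. None rose against JQ1 alone (0.0142% of tested genes) or with either single treatment against vehicle (0%). Klf15 was at 11.3 and 54.3 CPM in the combination, 1.68 and 1.13 with JQ1, 4.74 and 1.87 with anti-PD-1, and 2.36 and 1.37 in vehicle. Fkbp5, a receptor co-chaperone, was at 34.9 and 73.7 CPM in the combination against 11.8 and 13.5 in vehicle. Klf15 rose by 4.17 (SE 0.76) and Fkbp5 by 2.11 (SE 0.41), with adjusted p of 0.0299 and 0.0303 in edgeR. Both calls ended without combination replicate 2 (2.58 and 1.44), vehicle replicate 1 (4.58 and 2.0) or vehicle replicate 2 (3.80 and 2.19), and with the ribosomal share (−1.87 and 1.41). Ddit4 was at 2.97 (SE 0.73) and Klf9 at 1.33 (SE 0.35), both missing the threshold. They were at 0.91 and 0.79 without combination replicate 2, and were called at 3.74 and 1.69 without combination replicate 1. Between combination replicates 2 and 1 Klf15 differed by 2.21, Ddit4 by 2.73, Dusp1 by 0.47 and Pdk4 by −0.27 on the log2 scale, beside 1.82 for Per1, −0.07 for Per2 and 0.24 for Per3. Dusp1 and Pdk4 were picked after their values were seen. The part of glucocorticoid signals in the Per1 values was not tested.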

How the data were processed

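RNA of tumour nodules was captured with coding-region probes (TruSeq RNA Access), per the labels' protocols. The submitters' processing notes name bcl2fastq, STAR, featureCounts and DESeq2 and the builds mm10 and GRCm38. Versions, annotation and strand use were not given in the sources used here. As deposited by the authors, the table holds unnormalized whole-number counts for each symbol, and only this table was used, not their normalized one. Replicates were numbered in accession order.

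Genes that passed filterByExpr were tested with edgeR 4.0.16 (R 4.3.3): TMM factors, 1 quasi-likelihood fit to all libraries, a mean for each group, 4 residual degrees of freedom, 8 contrasts, Benjamini-Hochberg over all tested genes, calls at 0.05. The biological coefficient of variation was 0.332. "Rose" is used for calls. SE is the log2 fold change over the root of F, and 95% intervals use the fit's degrees of freedom. Alternatives included DESeq2 1.42.0 and limma 3.58.1 voom. Ribosomal RNA is the sum of 358 genes of GENCODE vM21, which also gave positions (1-based, GRCm38).

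All 10 members were named. In each contrast at least 3 had fold changes stated, by call or smallest p, and up to 4 genes with the smallest p were named per other list. A gene that this rule names, and an allele of the model, are not reported here. The members and lists were chosen with earlier results of these data known. With 2 libraries a group no outlier test was possible.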

Additional observations from a re-analysis of the deposited data

Results flagged for a closer look

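Nr1d2 moved in opposite directions with JQ1 on the 2 backgrounds in every library. How many of all tested genes did likewise was not counted. In JQ1 against vehicle alone, 23% of tested genes were lower in both JQ1 libraries. With the antibody both JQ1-treated libraries (the combination, 125 and 106 CPM) lay above both anti-PD-1 libraries (93.2 and 77.2 CPM), and without it both JQ1 libraries (55.5 and 27.7 CPM) lay below both vehicle libraries (68.8 and 57.8 CPM). The difference between the effects, the interaction, was 1.04 on the log2 scale (SE 0.47, adjusted p = 0.776 in edgeR), so it did not pass, and by leaving out 1 library at a time it ranged from 0.62 to 1.61.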

How the results depend on the processing

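Over 18 alternatives, 47 fold changes gave 834 values, of which 713 kept direction and side of the threshold, 50 lost the call, 54 gained one and 17 changed sign. The count of clock genes called in the combination against vehicle was 2, and it became 4 with no filter, 4 with DESeq2, 3 with sex, 1 with the ribosomal share and 1 with only the libraries compared, and 0 to 4 by leaving out 1 library. Against anti-PD-1 it was 1, and it became 2 with upper-quartile factors, a mean count of at least 50 or voom, 3 with DESeq2, 4 with no filter and 0 with the ribosomal share (0 to 3 by library). Against JQ1 it was 1, and it became 5 with no filter or DESeq2 and 0 with the sex term, the ribosomal share or only the libraries compared (0 to 2). In JQ1 against vehicle it was 0, and 1 with the ribosomal share (0 to 0). For JQ1 averaged it was 1, 2 at a mean count of at least 50 and 0 with sex (0 to 2), for the antibody averaged 0, 5 with no filter and 3 with DESeq2 (0 to 2), and for the interaction 0, and 1 with no filter or DESeq2 (0 to 0). Genes called in the combination against vehicle numbered 676, against 1992 with no filter, 1632 with DESeq2, 339 with sex, 245 with only the libraries compared, 2 with the ribosomal share and 7 to 1115 by library.

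With the ribosomal share, which follows the groups, these turned in the combination against vehicle: Npas2 (−0.96), Per1 (−0.63), Nr1d1 (−8.64), Nr1d2 (−0.71), Ciart (−0.52), Btrc (2.40), Por (−0.12), Klf10 (−3.14), Klf15 (−1.87) and Ddit4 (−2.38), as did Per3 for JQ1 averaged (−0.33). The cause was not tested. By leaving out 1 library, Arntl ranged from −0.93 to 0.30, Clock from −0.36 to 0.023, Npas2 from −1.29 to 0.82, Nr1d1 from −0.96 to 1.26, Lonrf3 from −0.080 to 2.30 and Klf10 from −0.37 to 1.75. A lone library was taken to vary like the other groups. No paired analysis was possible because the labels give no replicate numbers. Depth limits genes of low count, since combination replicate 1 held 20 counts of Cry1, 9 of Npas2 and 5 of Nfil3.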
